A study of Mus musculus with 30 samples.

Results

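Whether injury of the spinal cord at the ninth thoracic level changed a hind limb muscle and a forelimb muscle of the same mouse to different degrees was measured as an interaction. For each gene, the T9 minus sham difference in the gastrocnemius was set against the T9 minus sham difference in the triceps brachii. Libraries of the T9 and sham mice that had both muscles and carried the number 60 in their descriptions were used, which gave 8 mice and 16 of the 30 libraries of the series, and all 11249 genes of the deposited table were tested. Injured animals were 4 male mice with a T9 transection, and controls were 4 male mice with sham surgery, all sampled 3 days after surgery. The labels give no strain or age. The gastrocnemius is a calf muscle of the hind limb, and the triceps brachii extends the elbow of the forelimb. PolyA RNA was sequenced from strand-specific libraries as pairs of reads, and values are given as CPM, reads per 1e+06 reads in the genes of the table.

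The motor neurons of the hind limb lie in the lumbar cord, below a T9 lesion, and those of the forelimb lie in the cervical cord above it. Transection at T9 cuts the descending input to the first but not to the second, while both muscles are reached by the same circulating hormones and metabolites. Muscle that loses its nerve activity raises acetylcholine receptor subunits and myogenic factors, and muscle that wastes raises ubiquitin ligases which mark contractile proteins for breakdown. The coactivator PGC-1α, encoded by Ppargc1a, and the estrogen-related receptors drive genes of mitochondria and of slow, oxidative fibres.

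Each library held 13293557 to 21382478 reads. All 10 skeletal muscle fibre markers were in the table, and the position gene Hoxd9 had 22.5, 19.1, 19.4 and 16.6 CPM in gastrocnemius of T9 mice and 16.6, 16.9, 20.7 and 13.9 CPM in gastrocnemius of sham mice, against 4.69, 8.7, 9.56 and 5.74 CPM in triceps of T9 mice and 7.64, 6.72, 5.92 and 6.32 CPM in triceps of sham mice. All 8 gastrocnemius libraries thus lay above all 8 triceps libraries for this gene, which is more active toward the hind end of the body. Several libraries stood apart. The Lyz2 level, a macrophage readout, was 705 CPM in triceps of sham replicate 4 and 7.88 to 37.1 CPM in the other 15 libraries. In the same library the 10 measured macrophage markers summed to 1088 CPM, against 20.8 to 70.2 CPM in the others. Library medians on the log2 scale were 4.30 ± 0.025 in gastrocnemius of T9 mice and 3.90 ± 0.18 in gastrocnemius of sham mice, and 3.88 ± 0.16 in triceps of T9 mice and 3.62 ± 0.26 in triceps of sham mice (SD, n = 4 each), with the lowest value, 3.29, in triceps of sham replicate 3. Mitochondrially encoded genes took 8.58% ± 0.787 of reads in gastrocnemius of T9 mice and 10.9% ± 1.63 in gastrocnemius of sham mice, and 16.2% ± 1.28 in triceps of T9 mice and 14.3% ± 2.13 in triceps of sham mice. That both libraries of a number come from 1 mouse is an inference from the descriptions: they deviated together from their group means (r above 0.1) in 6 of 8 mice, but not in sham replicate 1 (r = 0.010) or sham replicate 3 (r = -0.64). The interaction estimates do not depend on this pairing, but their errors, the calls and the within-mouse differences do, and with no replicate block 353 genes were called, of which 317 were among the 484 described next.

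The T9 effect differed between the muscles for 484 of 11249 genes (4.3%), 235 with a higher and 249 with a lower effect in the gastrocnemius than in the triceps (limma, adjusted p under 0.05). These are 2.09% and 2.21% of the genes tested, the shares beside which the counts of called list members below are to be read. Over all genes the median interaction was 0.15 on the log2 scale, and with each library centred on its median 241 genes (2.14%) were higher and 442 (3.93%) lower. Of the 235 higher genes 155 kept their call after centring, and of the 249 lower genes 239 did. In the gastrocnemius alone 3807 genes (33.9%) were called, of which 3311 (29.4%) rose and 496 (4.41%) fell, with a median change of 0.40, and after centring 903 rose and 1034 fell. In the triceps alone limma called 0 genes (0%), with 1352 at an unadjusted p under 0.05, and the median change was 0.27. With 12 triceps libraries and a term for the label number 2 genes were called, and 1 of the 483 interaction genes tested there was among them.

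Of the 235 higher genes, 218 also rose in the gastrocnemius alone, and the triceps estimate had the opposite sign to the gastrocnemius estimate for 114. Of the 249 lower genes, 202 also fell in the gastrocnemius alone. Among these 249 the triceps estimate had the opposite sign for 204 and was larger in size than the gastrocnemius estimate for 62. Genes picked for a large difference of effects favour both, and the shares over all genes were not counted. These signs are of values that were not centred. The median triceps change over all genes was 0.27, and 0.0071 after centring, so a positive triceps sign alone does not show a response of that gene. The within-mouse muscle differences of T9 and sham mice did not overlap for any of the 484 genes (14.1% of all genes tested), which restates the choice of these genes, since they were called on the same differences. Between the muscles of the same mouse, 5323 genes (47.3%) differed in T9 mice and 3141 (27.9%) in sham mice, although the count in sham mice was 11 without T9 replicate 4 or without sham replicate 2. Of the 249 lower genes 231 were lower in the gastrocnemius than in the triceps of T9 mice (background 9.7%), and 47 were higher in the gastrocnemius of sham mice (19.4%). Of the 235 higher genes 228 were higher in the gastrocnemius of T9 mice (37.6%). The changes within each muscle and the muscle differences of T9 and sham mice are terms of the interaction, taken from the same libraries. The counts of this paragraph thus follow in part from the choice of the 484 genes and are no separate support. In bulk muscle, fewer cells of a type and less RNA per cell cannot be told apart.

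**Figure D1:**
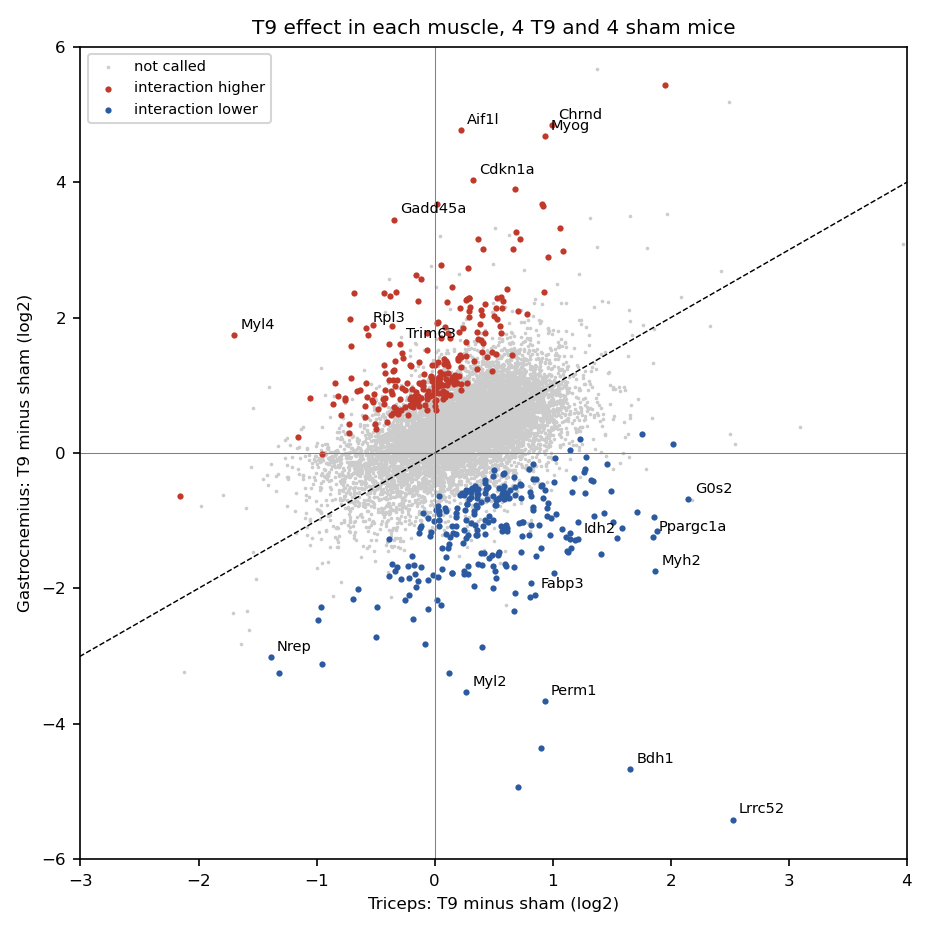
Each point is a gene, with its T9 minus sham difference in triceps on the horizontal axis and in gastrocnemius on the vertical axis, both on the log2 scale; red marks a higher and blue a lower interaction. The dashed line marks equal effects, with higher interactions above it and lower interactions below it. Of the 249 lower genes 204 have estimates of opposite sign in the 2 muscles, in values not centred on library medians. Picking genes by a large difference of effects favours opposite signs, and the share over all genes was not counted.

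Part of the list of denervation-induced and neuromuscular junction genes differed between the muscles, while denervation itself was not measured. Of its 25 measured genes, 6 had a higher and 2 a lower effect in the gastrocnemius. The list's median interaction was 0.51, against 0.15 over all genes. Chrnb1 (1.43), Ncam1 (2.43), Rapsn (0.51), Musk (0.76) and Chrne (-0.16) of this list, named after their values were seen, were not called. Gadd45a, a stress gene that rises in muscle without nerve input (chr6:67035096-67037457, minus strand, GRCm38), had 253, 261, 272 and 280.1 CPM in gastrocnemius of T9 mice, against 24.4, 22.8, 26 and 24.4 CPM in gastrocnemius of sham mice. In the triceps it had 13.2, 18, 13.6 and 45.4 CPM in T9 mice, against 18.7, 23.7, 22.8 and 37.5 CPM in sham mice. The gastrocnemius groups were far apart and the triceps groups overlapped, and the interaction was 3.79 ± 0.38 (SE; 95% interval 2.95 to 4.63, adjusted p = 0.00066). Myog, which encodes the myogenic factor myogenin, had 127, 102, 105 and 113 CPM in gastrocnemius of T9 mice, against 4.52, 3.68, 5.52 and 3.79 CPM in gastrocnemius of sham mice. Its triceps values were 7.0, 10.2, 7.34 and 22.4 CPM in T9 mice, against 3.32, 3.26, 2.93 and 27.5 CPM in sham mice. Triceps of sham replicate 4 was above all triceps of T9 mice for this gene, and the interaction was 3.75 ± 0.74 (adjusted p = 0.021).

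Chrnd, the delta subunit of the acetylcholine receptor, averaged 46.5 ± 16.3 CPM in gastrocnemius of T9 mice and 1.64 ± 0.748 CPM in gastrocnemius of sham mice, and 2.91 ± 2.19 CPM in triceps of T9 mice and 1.52 ± 0.961 CPM in triceps of sham mice (SD, n = 4 each). Its interaction was 3.85 ± 0.82 (adjusted p = 0.027). The alpha subunit gene Chrna1 did not pass, with an interaction of 2.81 ± 0.72 (adjusted p = 0.057). Hdac4, a deacetylase that carries the loss of nerve activity to the myogenic factors, had 194, 172, 199 and 171 CPM in gastrocnemius of T9 mice, against 13.3, 26.2, 28.3 and 11.5 CPM in gastrocnemius of sham mice. In the triceps Hdac4 had 13.5, 21.5, 21.4 and 19.7 CPM in T9 mice, against 9.72, 13.8, 6.47 and 7.37 CPM in sham mice. The effect was in the same direction in both muscles, with a triceps estimate of 1.06 that did not pass, and the interaction was 2.26 ± 0.36 (adjusted p = 0.0092). The myogenic factors Myod1 and Myf6 had interactions of 1.89 ± 0.33 and 1.42 ± 0.23 (adjusted p = 0.014 and 0.01). The lower members, both named after their values were seen, were the growth factor carrier Fgfbp1 at -2.17 ± 0.42 and Dach2, which represses myogenin, at -2.52 ± 0.51. Dach2 had few reads in the gastrocnemius, with 0.303, 0.587, 0.457 and 0.185 CPM in T9 mice, against 3.02, 0.84, 2.1 and 3.59 CPM in sham mice, and 5.73, 3.33, 4.67 and 5.28 CPM in triceps of T9 mice, against 7.64, 2.93, 3.72 and 5.04 CPM in triceps of sham mice. It did not pass the filter on low values in the gastrocnemius alone, and 15 of 21 other settings called its interaction.

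Cdkn1a, which encodes the cell cycle inhibitor p21 (chr17:29090976-29100727, plus strand), had 264, 216, 234 and 322 CPM in gastrocnemius of T9 mice, against 27.3, 9.36, 22.9 and 10.2 CPM in gastrocnemius of sham mice. Its triceps values were 11.5, 21.4, 21.4 and 67.8 CPM in T9 mice, against 28.1, 13.6, 15.1 and 24.8 CPM in sham mice, which overlapped. The interaction was 3.70 ± 0.49 (adjusted p = 0.0029). Eda2r, a receptor of the tumour necrosis factor family linked to muscle loss, averaged 141 ± 34.4 CPM in gastrocnemius of T9 mice and 11.9 ± 5.0 CPM in gastrocnemius of sham mice, and 20.6 ± 10.6 CPM in triceps of T9 mice and 19.4 ± 7.32 CPM in triceps of sham mice. Its interaction of 3.65 ± 0.32 (adjusted p = 0.00038) came with a triceps estimate of 0.021. Of 16 measured p53-linked and Gadd45 genes 4 were higher and 2 lower, the lower being Gadd45b at -1.78 and Gadd45g, named after its values were seen, at -1.38.

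Of 27 measured ubiquitin ligases and atrogenes, 2 were higher and 1 was lower, and the list's median interaction of 0.14 lay close to the 0.15 over all genes. Trim63, which encodes MuRF1 (chr4:134315120-134329629, plus strand), had 548, 697, 954 and 1099 CPM in gastrocnemius of T9 mice, against 422, 232, 252 and 189 CPM in gastrocnemius of sham mice. In the triceps it had 174, 204, 309 and 360.4 CPM in T9 mice, against 531, 258, 294 and 223 CPM in sham mice. The gastrocnemius groups did not overlap and the triceps groups did, and the interaction was 1.90 ± 0.16 (95% interval 1.55 to 2.25, adjusted p = 0.00035). Fbxo32, which encodes atrogin-1, had 642, 1133, 1421 and 1313 CPM in gastrocnemius of T9 mice, against 204, 325, 265 and 134 CPM in gastrocnemius of sham mice. Its triceps values were 91.7, 167, 291 and 234 CPM in T9 mice, against 243, 168, 100.4 and 113 CPM in sham mice, and the interaction was 2.0 ± 0.33 (adjusted p = 0.011). The lower member was Kbtbd13 (-2.26). Foxo1, which encodes a transcription factor that acts on both ligases, did not pass (1.09 ± 0.35, adjusted p = 0.12). Among growth regulators, Fst, which encodes the activin and myostatin binder follistatin, had 12.7, 9.45, 6.65 and 7.52 CPM in gastrocnemius of T9 mice, against 1.27, 0.775, 2.95 and 2.74 CPM in gastrocnemius of sham mice, and 2.6, 2.43, 2.01 and 2.49 CPM in triceps of T9 mice, against 2.19, 2.26, 4.15 and 5.12 CPM in triceps of sham mice. Its interaction was 2.79 ± 0.32 (adjusted p = 0.0013), and that of Mstn, which encodes myostatin, was 0.77 ± 0.23 and did not pass (adjusted p = 0.092).

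**Figure D2:**
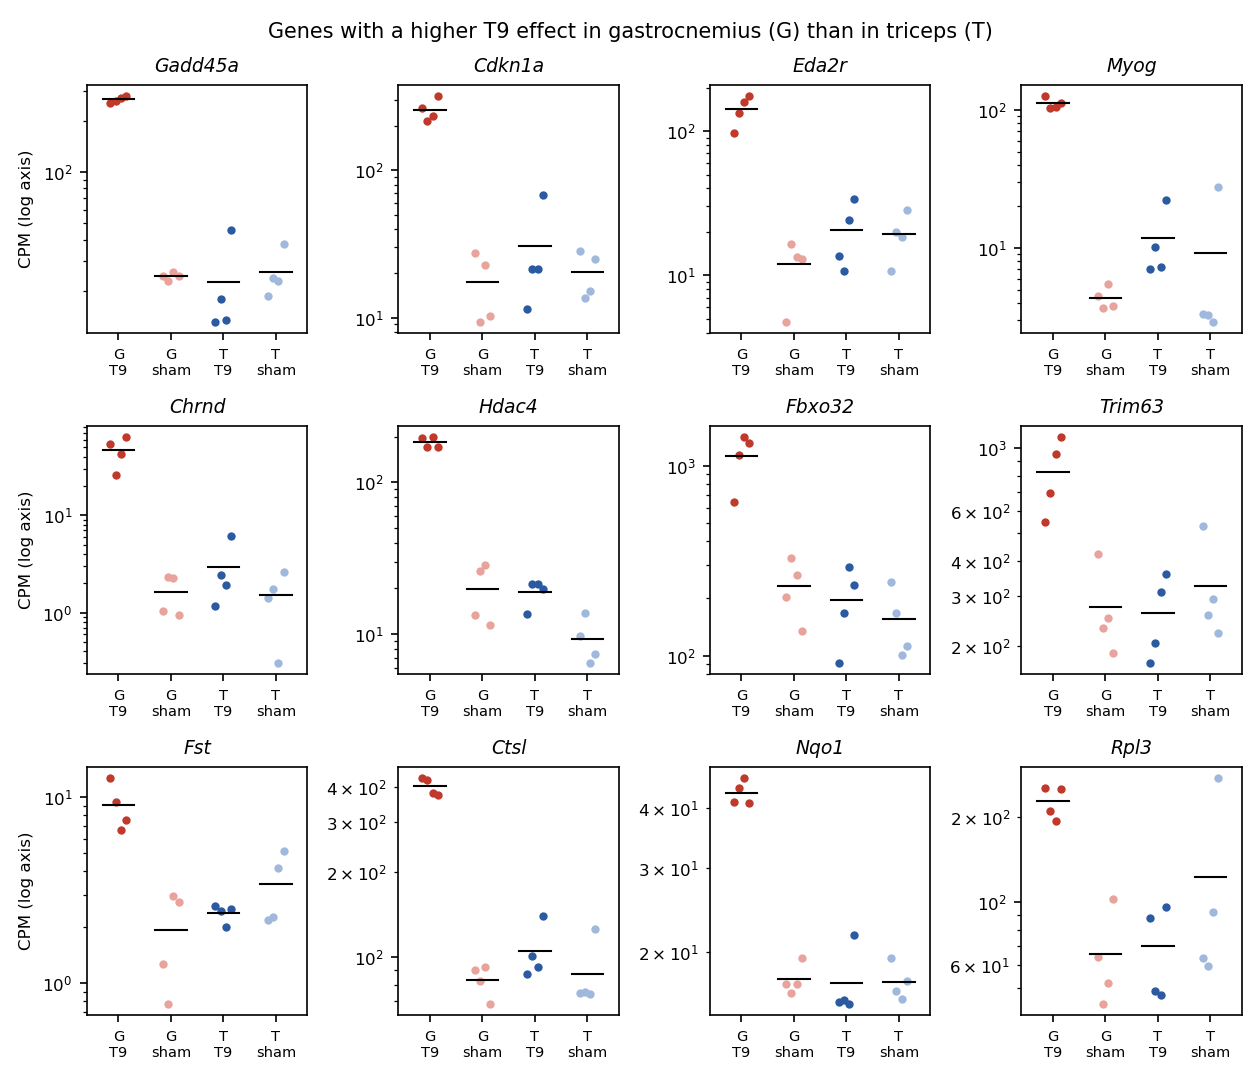
CPM on a log axis for 12 genes with a higher T9 effect in gastrocnemius (G) than in triceps (T), 1 point per library and a bar at the group mean (n = 4 each). The gastrocnemius T9 points stand above the gastrocnemius sham points in each panel, while the triceps groups overlap or lie closer together.

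The promoters of Cdkn1a and Trim63 are shown because both genes were called and hold CAGCTG, the E-box that myogenic factors can bind, in the 300 bases that RefSeq GRCm38.p6 places from 250 before to 50 after the gene start. Both were chosen after their values were seen, and capitals mark the E-box, searched as CAGCTG, which reads the same on both strands. The Cdkn1a promoter is at chr17:29090729-29091028, plus strand, and that of Trim63 at chr4:134314870-134315169, plus strand.
Cdkn1a: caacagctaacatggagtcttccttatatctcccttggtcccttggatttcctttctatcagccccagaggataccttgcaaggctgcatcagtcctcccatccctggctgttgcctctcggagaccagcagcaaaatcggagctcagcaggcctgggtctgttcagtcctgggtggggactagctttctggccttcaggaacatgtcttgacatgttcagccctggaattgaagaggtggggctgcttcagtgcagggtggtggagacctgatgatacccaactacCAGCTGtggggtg
Trim63: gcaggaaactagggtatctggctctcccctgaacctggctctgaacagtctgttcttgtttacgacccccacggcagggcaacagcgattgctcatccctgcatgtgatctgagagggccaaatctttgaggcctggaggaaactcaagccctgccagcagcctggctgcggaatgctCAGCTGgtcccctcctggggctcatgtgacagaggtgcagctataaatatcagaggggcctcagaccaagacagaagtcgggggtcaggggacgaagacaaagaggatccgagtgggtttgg
This E-box was present in 19.1% of the 168 higher genes with a promoter in the reference, in 20.9% of the 196 lower genes, and in 18.1% of the 8375 measured genes with one. The shares lay close together, and a match is a description of letters, not of a bound site.

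Some genes of protein breakdown, stress and protein synthesis had a higher effect in the gastrocnemius. Of 32 proteasome subunits 8 were higher and 0 lower, with a median interaction of 0.66, and after centring 0 were called with a median of 0.52. Psmd4, a ubiquitin receptor of the proteasome, averaged 391 ± 38.6 CPM in gastrocnemius of T9 mice and 182 ± 12.4 CPM in gastrocnemius of sham mice, and 186 ± 27.4 CPM in triceps of T9 mice and 187 ± 41.2 CPM in triceps of sham mice, an interaction of 1.09 ± 0.19. Among autophagy and lysosome genes 3 of 32 were higher. They were the protease gene Ctsl at 2.0 ± 0.30 (adjusted p = 0.0065), the cargo receptor gene Sqstm1 at 1.07 ± 0.25 (adjusted p = 0.041) and the proton pump gene Atp6v1h at 0.93, whose call was lost after centring. Ctsl averaged 402 ± 29 CPM in gastrocnemius of T9 mice and 83.4 ± 10.7 CPM in gastrocnemius of sham mice, and 105 ± 23.8 CPM in triceps of T9 mice and 87.6 ± 25.5 CPM in triceps of sham mice.

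Antioxidant and NRF2 genes were higher for 6 of 22 and lower for 1, Sod2 (-0.83, named after its values were seen), with a median interaction of 0.79. Nqo1, a quinone reductase, had 41.2, 44.1, 46.3 and 41 CPM in gastrocnemius of T9 mice, against 17.2, 16.4, 17.2 and 19.5 CPM in gastrocnemius of sham mice, and 15.7, 15.9, 15.6 and 21.7 CPM in triceps of T9 mice, against 19.5, 16.6, 15.9 and 17.5 CPM in triceps of sham mice. The gastrocnemius of T9 mice stood above all other libraries, and the interaction was 1.32 ± 0.21 (adjusted p = 0.009). Txn1, which encodes thioredoxin, and Gclm, of glutathione synthesis, had interactions of 1.47 ± 0.19 and 1.14 ± 0.23. Hmox1, of heme breakdown, did not pass (2.96 ± 0.74, adjusted p = 0.054), and triceps of sham replicate 4 had the most Hmox1 of that muscle, 38.4 CPM against 3.79 to 7.19 CPM. The metal binders Mt1 and Mt2 were higher by 1.45 ± 0.28 and 2.61 ± 0.59. They are among 6 higher of 29 glucocorticoid-induced genes, with Arrdc3 (2.35), Errfi1 (1.22), Cdkn1a and Angptl4, a lipase inhibitor gene with a gastrocnemius estimate of -0.64 and a triceps estimate of -2.16. Dusp1 of this list was lower. Fkbp5, a chaperone gene that glucocorticoids raise, had gastrocnemius and triceps estimates of 0.44 and 0.54 and an interaction of -0.096 ± 0.35 (95% interval -0.86 to 0.67).

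All 42 measured ribosomal protein genes had a positive interaction estimate, with a median of 0.65, but only Rpl3 was called. Their median estimates were -0.015 in the gastrocnemius and -0.66 in the triceps. Without sham replicate 3 the list's median interaction was 0.28, equal to the 0.28 over all genes in that fit, and 2 members were called. Rpl3 had 252, 209, 194 and 249 CPM in gastrocnemius of T9 mice, against 64, 44, 52.2 and 103 CPM in gastrocnemius of sham mice, and 88.1, 48.6, 47 and 96.1 CPM in triceps of T9 mice, against 63.8, 59.6, 92.5 and 274 CPM in triceps of sham mice. Its interaction was 2.43 ± 0.31 (adjusted p = 0.0025). The muscle paralog Rpl3l, named after its values were seen, averaged 330.4 ± 33.1 CPM in gastrocnemius of T9 mice and 701 ± 166 CPM in gastrocnemius of sham mice, and 749 ± 107 CPM in triceps of T9 mice and 844 ± 102 CPM in triceps of sham mice, and its interaction did not pass (-0.88 ± 0.22, adjusted p = 0.055). Of 25 ribosome biogenesis genes 5 were higher, among them Nhp2 (1.57) and the growth regulator Myc, which averaged 17.9 ± 4.05 CPM in gastrocnemius of T9 mice and 2.84 ± 1.32 CPM in gastrocnemius of sham mice, and 2.74 ± 1.23 CPM in triceps of T9 mice and 2.57 ± 1.01 CPM in triceps of sham mice. Eif4ebp1, a repressor of translation, was higher by 1.31 ± 0.17 (adjusted p = 0.0026). The heat shock genes Hsp90ab1 (1.23) and Cct2 (1.08) were higher and Hspb6 (-1.70) lower, of 20 measured.

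Further genes among the 15 with the largest positive interaction included Lpin2, which encodes a lipin phosphatase of lipid synthesis. It had 19.2, 28.1, 37.1 and 36.2 CPM in gastrocnemius of T9 mice, against 1.41, 2.97, 1.82 and 1.85 CPM in gastrocnemius of sham mice, and 1.91, 2.94, 3.45 and 4.87 CPM in triceps of T9 mice, against 1.52, 2.66, 1.34 and 2.56 CPM in triceps of sham mice. The interaction was 3.21 ± 0.29 (adjusted p = 0.00038). The estimate for Aif1l, an actin-binding protein gene, was 4.55 ± 0.88, for which the triceps of sham replicate 4 stood above the other triceps libraries, which had 0.98 to 11.5 CPM. The tetraspanin gene Cd82 (2.80), Cpne2 (2.79), the Notch ligand gene Dll1 (2.77), the kinase gene Sik1 (2.73), the keratin gene Krt80 (3.0) and the repressor gene Id2 (2.70) were higher too. Scx, which encodes the tendon factor scleraxis, was the 1 fibroblast marker called of 11, with 44.5 ± 7.42 CPM in gastrocnemius of T9 mice and 8.06 ± 3.85 CPM in gastrocnemius of sham mice, and 10.4 ± 3.91 CPM in triceps of T9 mice and 12 ± 7.16 CPM in triceps of sham mice. Sln, which encodes the calcium pump inhibitor sarcolipin, and Myl4, a myosin light chain of developing muscle, had interactions of 3.05 ± 0.71 and 3.44 ± 0.77. Triceps of sham replicate 4 was the highest triceps library for both, with 40.2 CPM of Sln and 191 CPM of Myl4, while the other triceps libraries had 2.80 to 7.43 CPM of Sln and 4.10 to 10.9 CPM of Myl4.

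Part of the list of regulators of mitochondrial genes showed the opposite pattern. Of 19 measured, 9 had a lower and 0 a higher effect in the gastrocnemius, and the median interaction was -1.12. These 9 include genes that are not regulators, such as the enzyme gene Bdh1 and the fission gene Mtfp1. Nrf1 (0.36), Gabpa (-0.19) and Tfam (0.039) of this list, named after their values were seen, were not called. Ppargc1a (chr5:51454250-51567726, minus strand) had 16, 14.8, 17.3 and 14.5 CPM in gastrocnemius of T9 mice, against 62.7, 49.4, 29.1 and 21.1 CPM in gastrocnemius of sham mice. In the triceps it had 120.0, 77.2, 147 and 85.3 CPM in T9 mice, against 50.5, 35.6, 16.8 and 22.8 CPM in sham mice. Every gastrocnemius value of T9 mice was below the sham values and every triceps value of T9 mice above them, and the interaction was -3.10 ± 0.25 (95% interval -3.65 to -2.55, adjusted p = 0.00035). The triceps estimate of 1.85 did not pass by itself.

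Perm1, a muscle gene that acts with PGC-1α and the estrogen-related receptors (chr4:156215868-156221307, plus strand), had 21.5, 24.5, 12.8 and 11.2 CPM in gastrocnemius of T9 mice, against 235, 310.2, 227 and 120.2 CPM in gastrocnemius of sham mice, and 174, 281, 283 and 200.3 CPM in triceps of T9 mice, against 191, 235, 70.1 and 65.9 CPM in triceps of sham mice. Its gastrocnemius values of T9 mice were all below those of sham mice, its triceps groups overlapped, and the interaction was -4.60 ± 0.38 (adjusted p = 0.00035). Bdh1, an enzyme of ketone body use (chr16:31422280-31458901, plus strand), had 1.15, 2.03, 1.07 and 1.36 CPM in gastrocnemius of T9 mice, against 34.8, 44.2, 46.7 and 21.6 CPM in gastrocnemius of sham mice, and 19.5, 55.9, 38.1 and 31.9 CPM in triceps of T9 mice, against 17.5, 19.7, 9.77 and 3.91 CPM in triceps of sham mice. Its interaction of -6.33 ± 0.38 (adjusted p = 4.8e-05) combined a gastrocnemius estimate of -4.67 and a triceps estimate of 1.66. The receptor genes Ppara (-2.53 ± 0.40), Esrrg (-1.87 ± 0.34) and Esrra (-1.34 ± 0.21), singled out after their values were seen, and the fission gene Mtfp1 (-1.40 ± 0.20) had lower interactions as well. Gastrocnemius and triceps estimates were -1.03 and 1.51 for Ppara, -0.59 and 1.28 for Esrrg, -1.18 and 0.15 for Esrra and -1.14 and 0.25 for Mtfp1. The gastrocnemius estimate of Esrrg did not pass (limma, adjusted p = 0.12), nor did any of these triceps estimates.

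**Figure D3:**
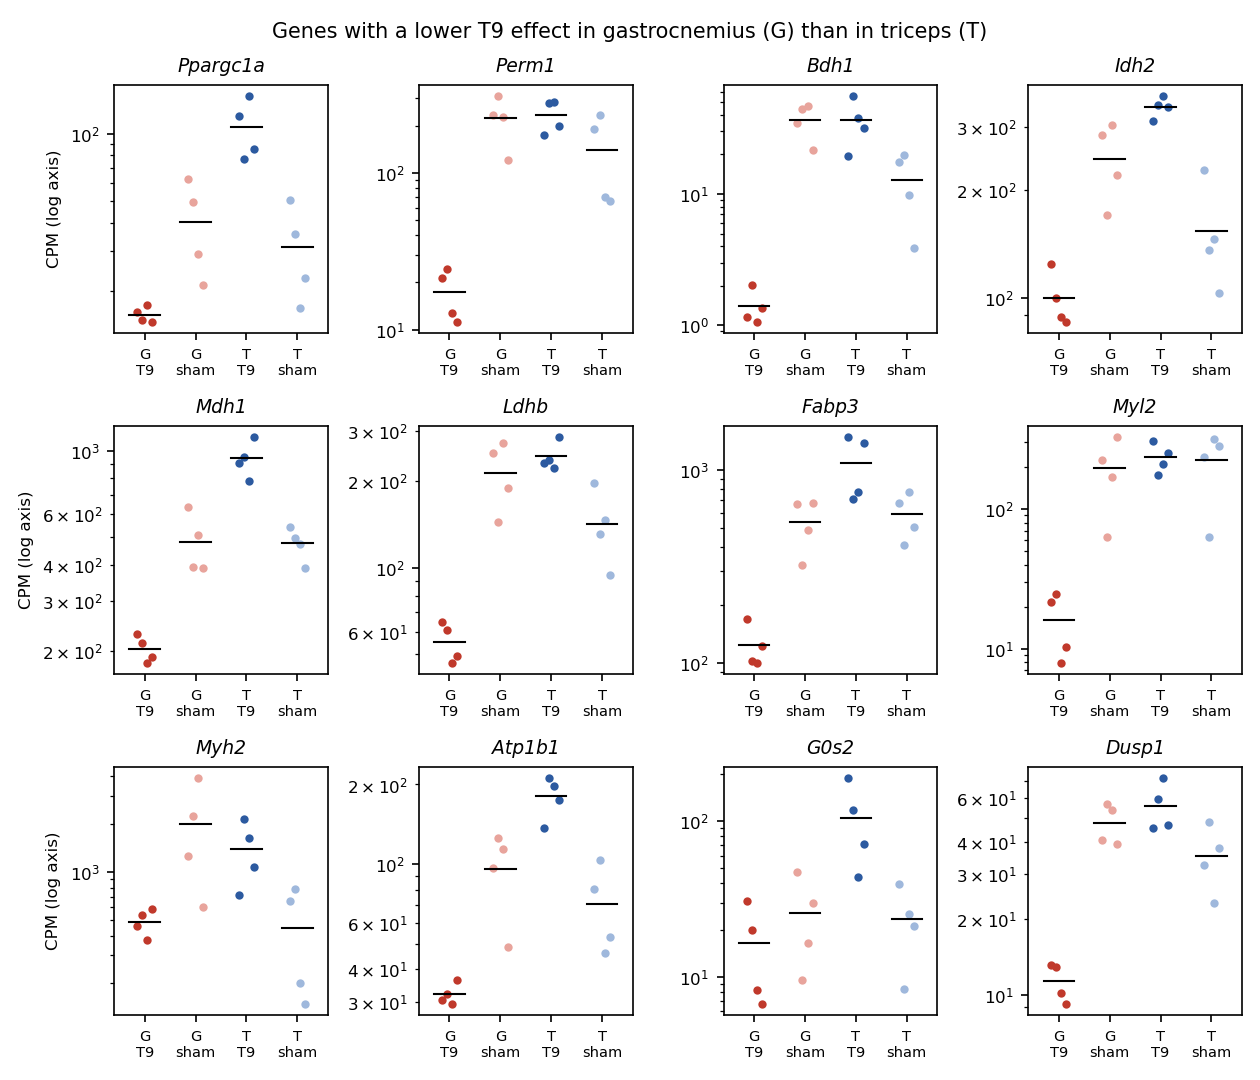
CPM on a log axis for 12 genes with a lower T9 effect in gastrocnemius (G) than in triceps (T), 1 point per library and a bar at the group mean (n = 4 each). The gastrocnemius T9 points lie below the gastrocnemius sham points in each panel but that of G0s2, and for Ppargc1a the triceps T9 points lie highest.

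The promoters of Perm1 and Got1 are shown because both genes were called lower and hold AAGGTCA, a half-site to which estrogen-related receptors can bind, in the same 300 base window of RefSeq GRCm38.p6. They were chosen after their values were seen, and capitals mark the motif, searched as AAGGTCA on both strands, so that TGACCTT is the match on the opposite strand. The Perm1 promoter is at chr4:156215677-156215976, plus strand, and that of Got1, which encodes an aspartate transaminase, at chr19:43524556-43524855, minus strand.
Perm1: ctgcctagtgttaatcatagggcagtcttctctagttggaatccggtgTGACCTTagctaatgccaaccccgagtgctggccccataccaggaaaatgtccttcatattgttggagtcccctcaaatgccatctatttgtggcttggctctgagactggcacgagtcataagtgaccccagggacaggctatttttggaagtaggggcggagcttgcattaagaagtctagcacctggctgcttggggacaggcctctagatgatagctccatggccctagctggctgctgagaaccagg
Got1: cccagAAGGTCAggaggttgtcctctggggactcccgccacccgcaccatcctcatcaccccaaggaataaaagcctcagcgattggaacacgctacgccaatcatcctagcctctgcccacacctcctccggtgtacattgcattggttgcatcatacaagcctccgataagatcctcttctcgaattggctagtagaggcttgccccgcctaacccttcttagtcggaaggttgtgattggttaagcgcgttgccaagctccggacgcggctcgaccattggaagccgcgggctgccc
The motif was present in 8.67% of the 196 lower genes with a promoter in the reference, in 2.98% of the 168 higher genes, and in 3.83% of the 8375 measured genes with one. The windows of Ppargc1a and Bdh1 are not shown, and neither a match nor its lack says whether the factor is bound.

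Several enzyme genes of oxidation were lower too. All 21 measured TCA cycle genes had a negative interaction estimate, with a median of -0.61, and 4 were called. The list's median estimates were -0.28 in the gastrocnemius and 0.39 in the triceps, against 0.40 and 0.27 over all genes. In the gastrocnemius alone 5 members fell and 1 rose, and in the triceps alone 0 were called. Idh2, a mitochondrial isocitrate dehydrogenase, had 125, 101, 88.9 and 86 CPM in gastrocnemius of T9 mice, against 286, 170.4, 304 and 221 CPM in gastrocnemius of sham mice, and 313, 347, 367 and 342 CPM in triceps of T9 mice, against 228, 137, 146 and 104 CPM in triceps of sham mice. The T9 values were below sham in all gastrocnemius libraries and above sham in all triceps libraries, and the interaction was -2.48 ± 0.26 (adjusted p = 0.00079). Mdh1 (-2.20 ± 0.20), Got1 (-1.88 ± 0.26) and Idh3a (-1.11 ± 0.20) were the others. All 48 nuclear-encoded respiratory chain genes had negative estimates, with a median of -0.60, and 7 were called, among them Sdhd (-1.23), Cyc1 (-1.14), Sdhc (-1.03) and Cox5a (-0.90). The medians of this list were -0.84 in the gastrocnemius, where 31 members fell, and -0.28 in the triceps. Without sham replicate 3, 36 of the 48 were lower, and without sham replicates 3 and 4 together 17 were. Of the 13 mitochondrially encoded genes, 0 were called and the median was -0.51.

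Fatty acid genes were lower for 8 of 31, with a median interaction of -0.49. Their median estimates were -0.20 in the gastrocnemius, where 8 fell and 1 rose, and 0.43 in the triceps, where 0 were called. Fabp3, a fatty acid carrier, had 169, 102, 100.3 and 123 CPM in gastrocnemius of T9 mice, against 666, 321, 489 and 677 CPM in gastrocnemius of sham mice, and 1486, 709, 769 and 1383 CPM in triceps of T9 mice, against 672, 407, 772 and 507 CPM in triceps of sham mice. Its interaction was -2.94 ± 0.26 (adjusted p = 0.00038), and that of the near-copy Fabp3-ps1 was -3.01 ± 0.28, so reads may be split between them. Lpl, which encodes lipoprotein lipase, averaged 189.6 ± 27.8 CPM in gastrocnemius of T9 mice and 627 ± 120.5 CPM in gastrocnemius of sham mice, and 805 ± 82.1 CPM in triceps of T9 mice and 782 ± 181 CPM in triceps of sham mice, an interaction of -1.78 ± 0.20. Plin5 (-2.01), a lipid droplet coat gene, and Acaa2 (-1.63), of beta-oxidation, were lower. Of 29 glycolysis and glycogen genes 6 were lower and 1, the glycogen branching enzyme Gbe1, higher (1.32). The symbol Aldoa stood for more than 1 entry of this list, at -1.26 and -0.12, and neither was called. The lactate dehydrogenase gene of oxidative muscle, Ldhb, had 64.7, 60.56, 46.7 and 49.3 CPM in gastrocnemius of T9 mice, against 250.1, 145, 271 and 189.7 CPM in gastrocnemius of sham mice, and 230.4, 237, 222 and 285 CPM in triceps of T9 mice, against 197, 131, 147 and 94.5 CPM in triceps of sham mice (-2.74 ± 0.25, adjusted p = 0.0004). Tpi1 (-1.64), Pfkfb1 (-1.62) and Eno3 (-1.43) were lower with triceps estimates of -0.21, -0.17 and -0.38.

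Part of the slow-fibre list was lower, 7 of 15 genes, with a median interaction of -1.34 and negative estimates for 14. The list's median estimates were -0.24 in the gastrocnemius, where 5 members fell, and 0.64 in the triceps, where 0 were called. The slow myosin heavy chain gene Myh7 did not pass (-0.68 ± 1.08, adjusted p = 0.80), and its gastrocnemius estimate was 0.93. The slow troponin genes Tnni1, Tnnc1 and Tnnt1, named after their values were seen, did not pass either (adjusted p = 0.24, 0.41 and 0.98). Myl2, the regulatory light chain of slow myosin, had 21.7, 24.5, 7.92 and 10.2 CPM in gastrocnemius of T9 mice, against 223, 62.9, 168 and 329 CPM in gastrocnemius of sham mice, and 308, 174, 209.7 and 250.0 CPM in triceps of T9 mice, against 237, 62.6, 319 and 281 CPM in triceps of sham mice. The T9 gastrocnemius values were all below the sham ones, and the triceps groups overlapped (-3.80 ± 0.41, adjusted p = 0.0011). Myl3 (-1.95 ± 0.28), Myoz2 (-2.04 ± 0.26), Casq2 (-1.75 ± 0.31) and Csrp3 (-2.02 ± 0.38) were lower likewise. Of 20 fast-fibre genes 1, Sln, was higher and 2 were lower, the myosin heavy chain gene Myh2 of oxidative fast fibres and Eno3. Myh2 had 461, 536, 377 and 584 CPM in gastrocnemius of T9 mice, against 1264, 2256, 3918 and 608 CPM in gastrocnemius of sham mice, and 716, 2145, 1648 and 1082 CPM in triceps of T9 mice, against 655, 781, 202 and 149 CPM in triceps of sham mice. The interaction was -3.61 ± 0.65 (adjusted p = 0.015).

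Several genes of membrane excitability were lower. Atp1b1, a subunit of the sodium pump, had 30.5, 32.1, 29.6 and 36.4 CPM in gastrocnemius of T9 mice, against 96.4, 126, 114 and 48.4 CPM in gastrocnemius of sham mice, and 137, 212, 198 and 175 CPM in triceps of T9 mice, against 80.3, 104, 46.1 and 53 CPM in triceps of sham mice. The T9 values were lower than all sham values in the gastrocnemius and higher than all sham values in the triceps (-2.90 ± 0.30, adjusted p = 0.00079). The potassium channel genes Kcnc1 (-2.78 ± 0.49), Kcna7 (-2.31 ± 0.29) and Kcnj2 (-1.64 ± 0.39) were lower as well. Lrrc52, which encodes a channel accessory protein, had 3 reads over the 4 gastrocnemius libraries of T9 mice against 199 over those of sham mice, a ratio of 0.0166 (exact 95% interval 0.00339 to 0.0491, counting error only). In the triceps it had 2.31, 4.16, 4.6 and 3.6 CPM in T9 mice, against 1.69, 0.532, 0.427 and 0.301 CPM in sham mice, and its interaction passed (adjusted p = 0.00035). Dok5, an adaptor gene, had 10 reads over the gastrocnemius libraries of T9 mice against 185 over those of sham mice, and 1.97, 3.84, 2.8 and 2.73 CPM in triceps of T9 mice, against 2.36, 4.26, 2.26 and 1.28 CPM in triceps of sham mice.

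Genes that respond to signals were also among the lower ones. Dusp1, a phosphatase of the MAP kinases, had 13.2, 12.9, 10.2 and 9.24 CPM in gastrocnemius of T9 mice, against 40.9, 56.8, 53.8 and 39.3 CPM in gastrocnemius of sham mice, and 45.5, 59.2, 71.8 and 46.6 CPM in triceps of T9 mice, against 32.5, 48, 23.1 and 37.9 CPM in triceps of sham mice (-2.74 ± 0.30, adjusted p = 0.0011). Nr4a1, an orphan receptor gene, was lower by -1.90 ± 0.36, and Jun and Myc of the same list of 20 immediate early genes were higher, Jun by 1.74 ± 0.38. G0s2, an inhibitor of fat breakdown, had 30.8, 20, 8.22 and 6.72 CPM in gastrocnemius of T9 mice, against 47.1, 9.56, 16.5 and 29.9 CPM in gastrocnemius of sham mice, and 190.0, 118, 43.6 and 70.8 CPM in triceps of T9 mice, against 39.5, 8.38, 25.3 and 21.1 CPM in triceps of sham mice. Here the gastrocnemius groups overlapped and the triceps groups did not (-2.83 ± 0.30, adjusted p = 0.00093). The guanylate binding gene Gbp10 was lower by -2.80 ± 0.56. Of 22 unfolded protein response genes Xbp1 (0.85) and Sdf2l1 (1.22) were higher and Ddit3 (-1.22) was lower.

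Some genes had estimates of like direction in both muscles. Nrep, named for neuronal regeneration, averaged 14.3 ± 4.38 CPM in gastrocnemius of T9 mice and 113 ± 18.6 CPM in gastrocnemius of sham mice, and 73.2 ± 16.9 CPM in triceps of T9 mice and 191 ± 39.8 CPM in triceps of sham mice. The decrease was larger in the gastrocnemius (-3.01) than the triceps estimate (-1.39), an interaction of -1.63 ± 0.17 (adjusted p = 0.00087). Nmrk2, which makes NAD from nicotinamide riboside, and Smox, a spermine oxidase, had gastrocnemius changes of -3.24 and -2.61 and triceps estimates of -2.12 and -1.57. Their interactions, -1.12 ± 0.31 and -1.04 ± 0.30, did not pass (adjusted p = 0.073 and 0.084). Of 17 measured polyamine and androgen-dependent genes 3 were higher and 2 lower. Odc1, the first enzyme of polyamine synthesis, was higher by 1.41 ± 0.18, Tmem100 by 2.0 ± 0.30, and the zinc transporter gene Slc30a2 was lower by -1.33 ± 0.24, while Amd1, also of polyamine synthesis, did not pass (-0.75 ± 0.22, adjusted p = 0.092). Igf1, a growth factor gene, had a gastrocnemius estimate of -0.91 and a triceps estimate of -0.90. Its interaction was -0.0076 with a 95% interval of -0.66 to 0.64. Cebpb, a transcription factor gene raised by glucocorticoids, had an interaction of 0.57 ± 0.36 that did not pass (adjusted p = 0.46).

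Ankrd1, a gene that responds to stretch, and Rrad, which encodes a small GTPase, did not pass. Ankrd1 had 404, 386, 354 and 273 CPM in gastrocnemius of T9 mice, against 9.09, 11.4, 25.5 and 3.14 CPM in gastrocnemius of sham mice, and 17.9, 49.4, 86.9 and 173 CPM in triceps of T9 mice, against 3.6, 10.4, 8.73 and 40.5 CPM in triceps of sham mice. Its interaction was 2.70 ± 1.12 (adjusted p = 0.23). For Rrad it was 4.30 ± 1.08 (adjusted p = 0.055). Of the lists without a call, collagen and matrix genes (26 measured), branched-chain amino acid catabolism (19), MHC class I and interferon genes (20) and limb position genes (7) had medians of 0.27, -0.17, 0.18 and 0.14. Among cell type markers 0 of 10 macrophage, 12 endothelial, 6 smooth muscle, 9 adipocyte, 5 Schwann, 5 erythroid and 10 fibre markers were called. Macrophage markers had a median of 1.20, with 1088 CPM in triceps of sham replicate 4, and their part in other results was not tested. None of 8 neutrophil and 8 T and NK cell markers was in the table.

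**Figure D4:**
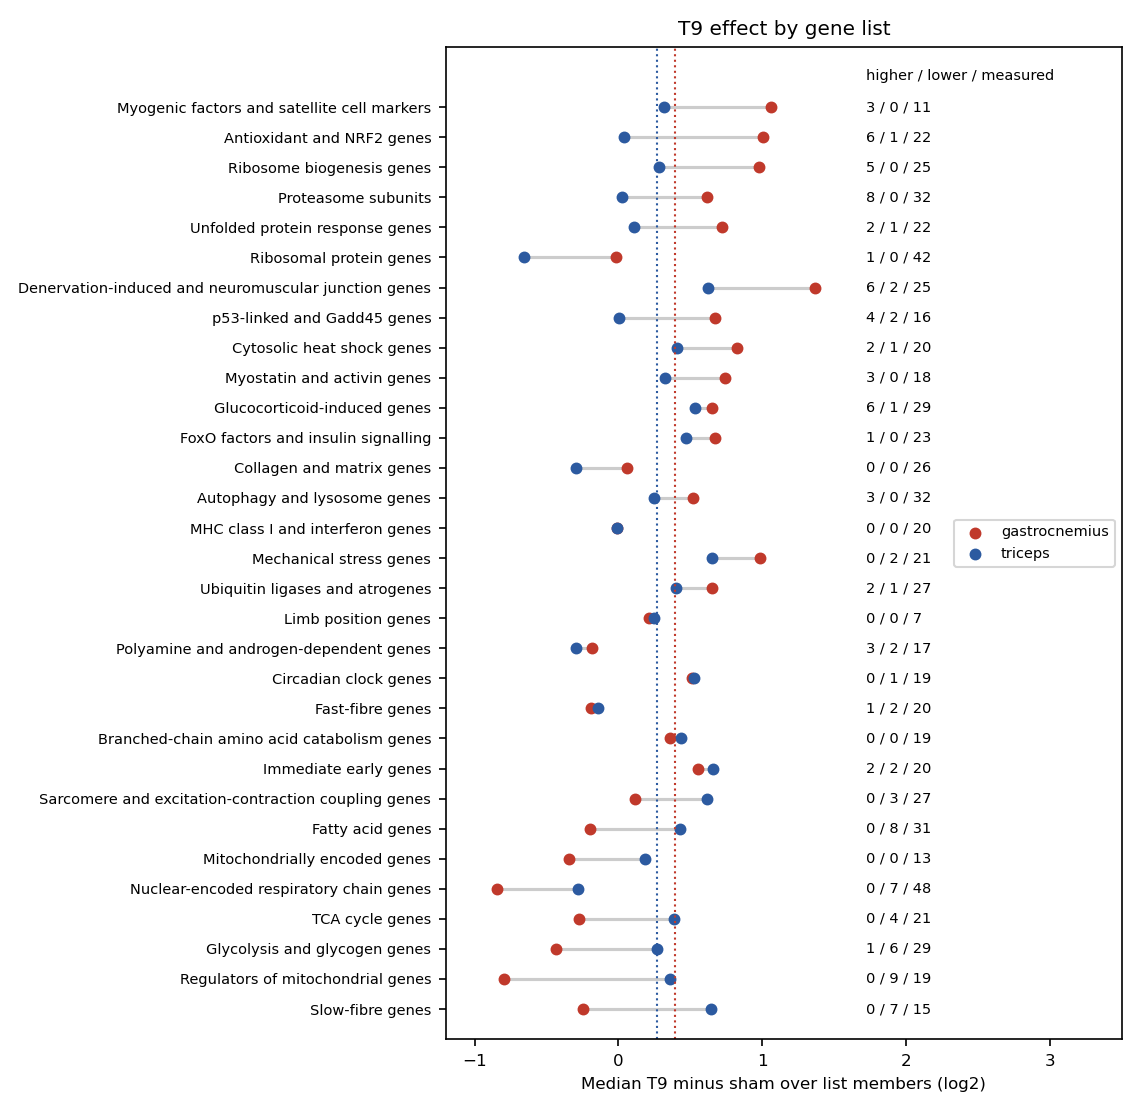
Median T9 minus sham difference on the log2 scale over the members of each of 31 gene lists, in red for gastrocnemius and blue for triceps, ordered by the median interaction. Dotted lines mark the medians of all genes, 0.40 in gastrocnemius and 0.27 in triceps, and the figures at the right give members with a higher or lower interaction and members measured; the slow-fibre and mitochondrial lists lie at the bottom and the myogenic, antioxidant and proteasome lists near the top.

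The interaction after T9 was compared directly with the interaction after T3 in 12 mice, where the same sham mice cancel. A T3 lesion lies higher in the cord. Limma called 5 genes (0.0444%), all lower after T9, and 812 were at an unadjusted p under 0.05. Of the 5, 4 are given here: Fbp2, a muscle fructose bisphosphatase, at -1.79 ± 0.21 (adjusted p = 0.0073), the stress gene Gadd45b at -2.07 ± 0.26 (adjusted p = 0.0096), the neurotrophin gene Ntf5 at -1.70 ± 0.26 and the predicted gene Gm49794 at -2.10 ± 0.32. For Fbp2 the within-mouse gastrocnemius minus triceps difference was -1.16, -1.06, -1.56 and -1.66 in T9 mice and 0.52, 0.76, 0.085 and 0.35 in T3 mice, with 0.39, 0.37, 0.80 and 0.27 in sham mice. The T9 mice lay below all the others, and T3 and sham mice overlapped. The calls were lost without T9 replicate 3, without T3 replicate 2 and without the replicate block (0 genes each).

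Counts of calls depended on which mice were included. Without each mouse in turn the interaction gave 138 calls (without T9 replicate 3) to 2012 calls (without sham replicate 3, 1490 higher and 522 lower). Without the other mice it gave 262 (T9 replicate 1), 177 (T9 replicate 2), 153 (T9 replicate 4), 282 (sham replicate 1), 266 (sham replicate 2) and 223 (sham replicate 4). All 484 genes kept their direction in each of these 8 fits, and 44 higher and 82 lower genes were called in all of them. Gadd45a, Cdkn1a, Eda2r, Trim63, Ppargc1a, Perm1, Bdh1, Idh2, Fabp3, Myl2 and Atp1b1 were called under all 21 other settings. Without sham replicate 3 the median interaction over all genes was 0.28, and list medians moved in both directions. Over all genes higher calls rose from 235 to 1490 and lower calls from 249 to 522. In the lists the counts of calls rose or stayed equal, and are to be read beside that rise. Higher calls were then 15 of 32 proteasome subunits (8 with all mice), 14 of 25 ribosome biogenesis (5) and 13 of 22 antioxidant genes (6). Of 22 unfolded protein response genes 13 were higher (2), of 29 glucocorticoid-induced genes 11 (6) and of 25 denervation-induced genes 10 (6). Of 23 FoxO and insulin signalling genes 9 were higher (1), of 32 autophagy genes 9 (3) and of 27 ubiquitin ligase genes 8 (2). In smaller steps higher calls were 7 of 16 p53-linked (4), 6 of 11 myogenic (3) and 6 of 20 heat shock genes (2). Myostatin and activin genes had 5 of 18 (3). The lists of collagen (26 measured), mechanical stress (21) and circadian clock genes (19) had 3 each (0), near the share over all genes. Lower calls were 36 of 48 respiratory chain (7), 10 of 21 TCA cycle (4) and 10 of 29 glycolysis genes (6). They were also 11 of 31 fatty acid genes (8), 11 of 19 in the list of mitochondrial regulators (9) and 4 of 17 polyamine genes (2). Among called genes named here, Angptl4 was called under 8 of the 21 settings, Atp6v1h under 11, Kcnj2, Sln and Sqstm1 under 12, Dll1, Gclm, Hsp90ab1 and Sod2 under 13, Chrnd, Jun, Krt80, Mt2, Myc, Sdf2l1 and Xbp1 under 14, Cox5a, Dach2, Gadd45g and Myl4 under 15, and Aif1l, Ddit3, Gbp10, Mt1 and Sdhc under 16. The others were called under 17 or more. Without sham replicates 3 and 4 together 562 genes were higher and 244 lower. In that fit 10 of 19 in the list of mitochondrial regulators and 5 of 15 slow-fibre genes were lower. Of 25 denervation-induced genes 10 were higher.

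**Figure D5:**
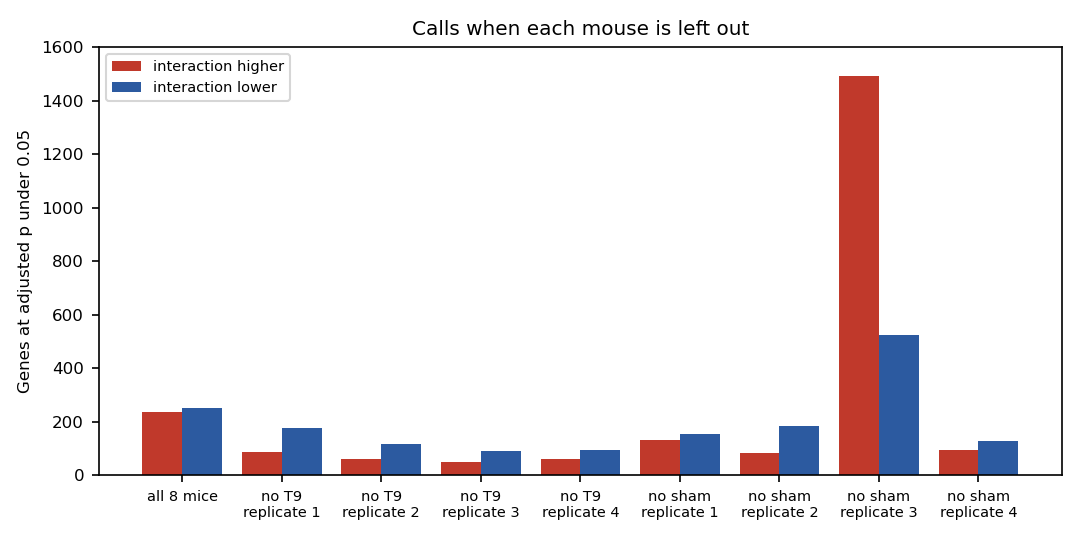
Number of genes with a higher or lower interaction at adjusted p under 0.05 with all 8 mice and without each T9 or sham mouse in turn. The count without sham replicate 3 stands above the others, at 1490 higher and 522 lower genes.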

How the data were processed

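The values the authors deposited are log2 CPM, to which 0.5 reads had been added. Undoing this with each library's total gave whole reads for 100% of values (tolerance 0.01 reads). HISAT2 2.1.0, featureCounts, Subread 1.5.1, limma and the GRCm38 build are named in the submitters' processing notes. Per the labels' protocols libraries were stranded, from polyA RNA.

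All genes that reached log2 0 in 4 or more libraries of a fit entered a linear model in limma 3.58.1 (R 4.3.3), with the mouse as a fixed block and moderated, trended variances. P-values are two-sided, with Benjamini-Hochberg adjustment across every gene of the fit and a threshold of 0.05. Single muscles were fitted alone, without a block. Tests were checked on simulated data with true pairs of muscles, no shift of library medians and no outlying library. That check thus does not cover these features of the real libraries. The number after 60 was taken as that of the mouse: r of same-mouse deviations averaged 0.259 and exceeded 0.1 in 6 of 8. For other mice of the group r averaged -0.083. Deviations from a group mean sum to 0, which ties that average to the same-mouse one, so it adds no evidence for the pairing. Some different mice had high r too: gastrocnemius of sham replicate 4 with triceps of sham replicate 3 (0.75), and gastrocnemius of sham replicate 3 with triceps of sham replicate 2 (0.65). No source says that replicates are separate animals beyond these numbers, so p-values measure the spread between these samples. Replicate libraries differed beyond sampling noise (chi-square per degree of freedom 9.78 or more).

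Members and the 41 gene lists, with the 31 genes of a panel, were chosen with earlier results of these data known, as was the rule for named genes: the 15 with the largest interaction in each direction, up to 4 members of each list by adjusted p, the panel, genes called in both muscles, and genes that also differed between muscles of sham mice. Exceptions are named as chosen after their values were seen, and 1 result is not reported here. Alternatives were other scalings, filters, pseudocounts, variance models, blocks and sets of libraries, and leaving out each mouse. Promoters are from RefSeq GRCm38.p6 and gene coordinates from GENCODE on GRCm38.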

Additional observations from a re-analysis of the deposited data

Results flagged for a closer look

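The T9 effect differed between gastrocnemius and triceps for 484 genes, and the T9 and T3 interactions differed for 5 genes, among them Fbp2 (-1.79 ± 0.21), Gadd45b (-2.07 ± 0.26), Ntf5 (-1.70 ± 0.26) and Gm49794 (-2.10 ± 0.32) on the log2 scale.

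In 238 groups of 4 values that were examined, 13 held a value far from the other 3, close to the 11.9 that chance gives at about 1 in 20. Within-mouse gastrocnemius minus triceps differences that stood apart were, in T9 replicate 1, Got1 (-0.92), Hspb6 (-0.53) and Psmd4 (1.27), in T9 replicate 2, Atp6v1h (0.79), and in T9 replicate 4, Ntf5 (-2.85). In sham replicate 4 they were Cct2 (-0.075), Ctsl (-0.88), Hmox1 (-3.03) and Rrad (-4.31), in sham replicate 3 Gbe1 (0.84) and Kcnj2 (1.71), and in sham replicate 2 Slc30a2 (-0.17). The macrophage gene Lyz2 stood apart in triceps of sham replicate 4, at 705 CPM.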

How the results depend on the processing

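All 484 interaction genes kept their direction under each alternative that tested them, and 37 higher and 69 lower genes were called under all 21. Interaction counts within 1.5 times of those reported came from no filter, a log2 minimum of 2, a pseudocount of 1 CPM, other variance models and voom weights. The interaction gave 442 lower genes with libraries centred and 435 with TMM scaling, 913 calls (357 higher, 556 lower) with quantile normalization, 804 (474 higher) with a random replicate block, 353 with no replicate block, 782 (423 higher) with T3 mice in the fit and 806 (562 higher) without sham replicates 3 and 4 together. Leaving out each mouse gave 138 to 2012 calls, 50 to 1490 higher and 88 to 522 lower. In gastrocnemius alone the count was 1937, 1955 and 1968 with centring, quantile and TMM scaling, and 1578 to 4780 without 1 mouse; in triceps alone it was 2 in 12 libraries with a term for the label number, a setting chosen after seeing the data, and 0 to 1 without 1 mouse. Between muscles the count was 2463 to 7184 without 1 mouse in T9 mice, and in sham mice it was 39 with no replicate block, 15 without sham replicates 3 and 4 together and 11 to 3126 without 1 mouse. The T9 minus T3 interaction gave 19, 24 and 22 calls with centring, quantile and TMM scaling, 3 with a pseudocount of 1 CPM or voom weights, 0 with no replicate block, 14 with a random replicate block, 17 without sham replicates 3 and 4 together and 0 to 15 without 1 mouse. The interactions of Igf1 and Fkbp5, both near 0, changed sign. Igf1 was 0.0094 with a pseudocount of 1 CPM, 0.019 with voom weights, 0.15 without sham replicates 3 and 4 together and -0.16 to 0.25 without 1 mouse, and Fkbp5 was 0.35 without sham replicates 3 and 4 together and -0.34 to 0.14 without 1 mouse. The cause of these shifts was not tested. A count model on the recovered reads, planned as an alternative, was not run. With 4 mice per group, genes with few reads, such as Lrrc52, have wide intervals.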
